A study of Mus musculus with 12 samples.

Results

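The mitochondrial ribosome is built from proteins encoded in the nucleus, made in the cytosol and imported into the matrix, and from ribosomal RNAs encoded by mitochondrial DNA. It translates the few messengers of the mitochondrial genome, which encode membrane subunits of the respiratory chain and of ATP synthase. Its proteins include families shared with bacterial ribosomes and others that are additions of the mitochondrial particle. The genes described here are those whose mouse Ensembl identifiers carry a symbol of the form Mrpl or Mrps followed by a number, with pseudogenes left out. The rule found 78 genes of the 55487 in the count table, and no measured value entered it. Of these, 27 were classed to the small subunit and 51 to the large subunit. The classes follow the symbols except for Mrps18a and Mrps30, which are large-subunit proteins despite their names. By family, 48 were classed to groups shared with bacteria and 30 as mitochondrial additions, Mrps36 among them. Whether every product, such as that of Mrps36, is part of the ribosome was not tested. Of the 78, 76 had enough reads to be tested, among 12897 genes in all.

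The libraries came from im_TEC, mouse tubular epithelial cells made conditionally immortal with SV40 large T antigen. Such cells were kept at 33 °C with interferon γ at 10 ng/mL, then held without it at 37 °C for 7 days. The cells were transduced either as mock or for overexpression of Nnmt (labelled Nnmt-OE), with puromycin selection. Each received TGFβ at 10 ng/mL for 48 h or none, which gave 4 groups of 3 libraries each. Nnmt encodes nicotinamide N-methyltransferase, and TGFβ is a cytokine that drives fibrotic responses in tubular cells. The design asks what TGFβ does with each construct, what the construct does with and without TGFβ, and whether the TGFβ difference depends on the construct. Library preparation was by QuantSeq, which reads tags near the 3' end at about 1 per transcript. Read counts scaled to library size (CPM, with each library brought to a common total) can therefore be set side by side between genes without scaling for length. Nothing in the labels ties the replicates of a group to separate cultures, and a p-value here speaks only to the spread among these libraries.

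Across the 12 libraries, 4733846 to 7247413 reads were counted in genes, and the 78 genes took 17539 to 29500 of them, or 0.366 to 0.408%. Nnmt stood at 17.8 to 24.7 CPM in mock and 22.9 to 28.5 CPM in the libraries labelled Nnmt-OE, a fold of 1.25 with a 95% interval of 0.921 to 1.69 (edgeR's quasi-likelihood test, Benjamini-Hochberg adjusted p = 0.897). With TGFβ the fold was 0.909 (0.677 to 1.22). The label is therefore not borne out by the tags, and the titles and the genotype field spell the construct differently (Nnmt-OE and Nmt-OE). A construct without the gene's own 3' end would not be counted, and whether the label is wrong was not tested, so every comparison by construct is one of labels. The tubular transcription factor genes Pax8 and Pax2 were present in every library, at 214 to 273 and 252 to 329 CPM, while Epcam, Cdh1, Umod, Slc12a3 and Aqp2 had no reads. The summed level of 18 tubular markers was 1700 to 2060 CPM without TGFβ and 1500 to 1700 CPM with it, a sum carried mostly by Aqp1 (599 to 1140 CPM). Of the 8 tubular markers tested, 4 had a positive TGFβ difference over both constructs, against 49.2% of all genes. Of the same 8, 1 rose and 2 fell, where 2.48% and 2.6% of all genes did. The summed level of 8 fibroblast markers was 1.61 to 8.04 CPM without TGFβ and 7.95 to 16.1 CPM with it. Col3a1, Lum and Thy1 were at 0. The 2 tested, Col1a1 and Col1a2, both rose over both constructs, where 2.48% of all genes rose. Over all libraries, 7 leukocyte markers summed to 55.2 to 96.3 CPM, mostly from Csf1r (51.2 to 88.4 CPM), with 4 of them at 0. The 5 podocyte markers summed to 203 to 244 CPM, mostly from Podxl and Synpo, and 6 endothelial ones to 0.44 CPM or less. The part of these markers in the results below was not tested. In such bulk libraries, fewer cells of a type and less RNA per cell cannot be told apart. The third replicates of both TGFβ groups and the first mock replicate stood apart from the other libraries on the leading components, and counts are also given without them. The library codes of each of the 4 groups run in a block of their own, and what the codes record is not stated.

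Mean levels of the tested mitochondrial ribosomal protein genes ran from 1.69 to 190.3 CPM. Among the 76 tested genes the median of the mean level over 12 libraries was 46.9 CPM, with quartiles of 29.5 and 64.8 CPM, and a gene at the median had 276 reads in a library. Small-subunit genes had a median of 40.7 CPM and large-subunit genes one of 49.4 CPM. Genes of bacterial families and mitochondrial additions had medians of 45.6 and 47.8 CPM. For 61 of the 76, the highest library was less than 2 times the lowest, and the median of that ratio was 1.60. The spread between libraries of a group, as the biological coefficient of variation of the fit, had a median of 13.6% for the 76 genes. All genes at 10 CPM or more, 9125 in number, had one of 13.8%, a cut not set on the 76. The median of the mean level of those 9125 genes was 45.7 CPM.

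Mrpl33, a large-subunit protein of a bacterial family, had the highest mean level, at 190.3 CPM (160.6 to 205.7 over the libraries). In the annotation, exons of Gm43809 overlap those of Mrpl33 on the same strand, away from its 3' end. Mrps6, of the small subunit, followed at 183.6 CPM (150.5 to 232.8), and the ranges of Mrpl33 and Mrps6 overlapped. Mrpl34, another large-subunit protein of a bacterial family, stood at 147.4 CPM (121.8 to 165.7). Next came the mitochondrial addition Mrpl49 at 99.5 CPM (70.9 to 113.9) and the bacterial-family protein Mrpl17 at 97.4 CPM (83.4 to 113.5), which did not differ beyond their spread.

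At the other end stood Mrps10 at 11.1 CPM (8.33 to 17.4), Mrpl48 at 10.3 CPM (3.73 to 17.0) and Mrps33 at 8.34 CPM (5.12 to 10.9), whose ranges overlapped. Mrpl23 at 1.94 CPM (0.165 to 5.72) and Mrps18b at 1.69 CPM (0.636 to 4.13) had only 136 and 124 reads over all libraries. The untested genes were Mrps36, with 41 reads in all, and Mrpl53, with 12. Several of these low levels are uncertain, since the table also lists near copies of the genes. Mrpl23-ps1 had 357 reads against 136 for Mrpl23. Mrpl48-ps had 848 reads against 746 for Mrpl48, and Mrps36-ps1 had 96 against 41 for Mrps36. Reads that fit a gene and its copy could have been split or dropped by the counting. Exons of Gm42688 overlap those of Mrpl53 on the same strand near its 3' end, and how reads were divided there was not tested.

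**Figure D1:**
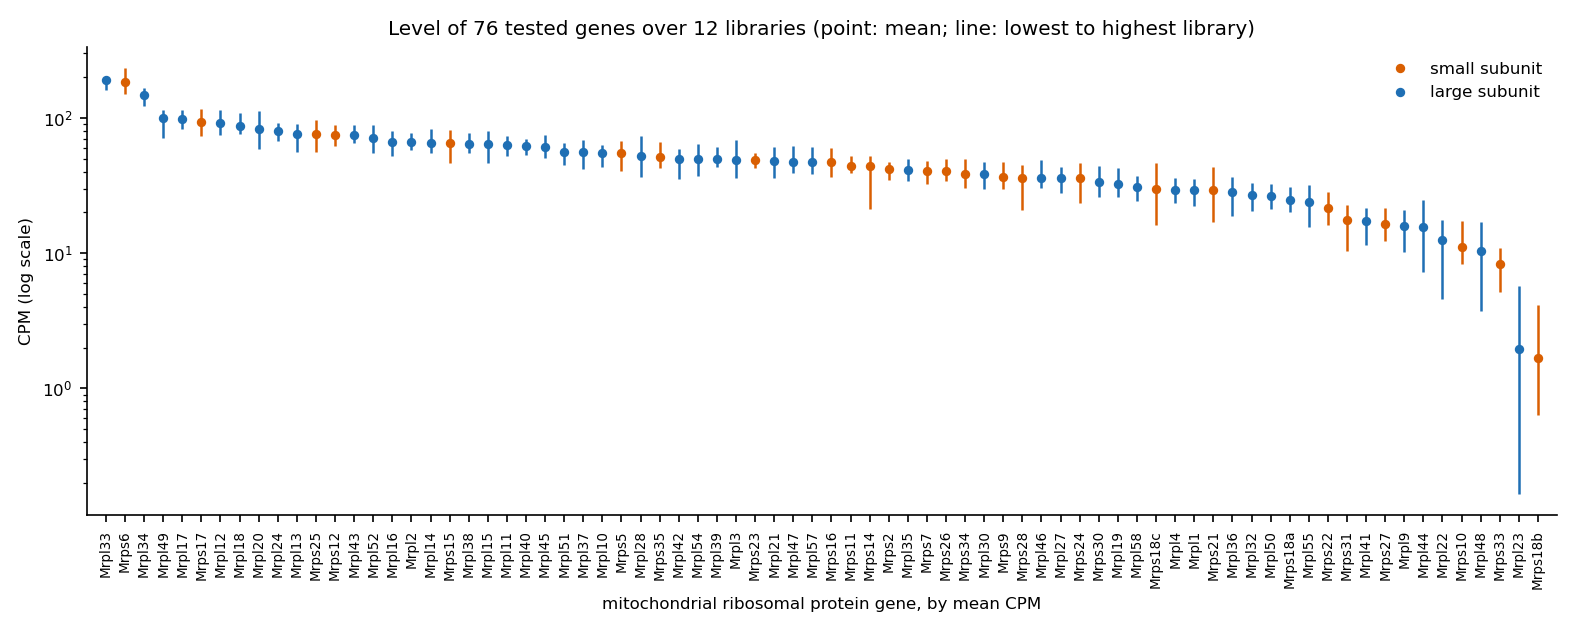
Level of each of the 76 tested genes in CPM on a log axis, ordered by mean over the 12 libraries; points are means, lines run from the lowest to the highest library, and colour gives the subunit. Most genes lie between 10 and 100 CPM, with Mrpl33 and Mrps6 at the upper end and Mrpl23 and Mrps18b, with wide lines, at the lower end.

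The Mrps18 paralogues are copies of 1 bacterial ribosomal protein family, and their products take different places in the particle: those of Mrps18b and Mrps18c in the small subunit and that of Mrps18a in the large. Mrps18c averaged 30.0 CPM and Mrps18a 24.9 CPM, with ranges of 16.1 to 46.2 and 20.0 to 30.7 CPM that overlapped. Mrps18b, at 1.69 CPM, lay below both in every library. Group means of Mrps18b were 0.785 CPM in mock, 2.23 CPM in mock with TGFβ, 1.64 CPM in Nnmt-OE and 2.09 CPM in Nnmt-OE with TGFβ. None of the paralogues passed the test in any comparison. In the annotation, exons of Gm16279 overlap Mrps18b near its 3' end, and the counting's strand setting is not given in the sources used here.

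TGFβ over both constructs was the comparison with the most calls. Mrpl21, a large-subunit protein of a bacterial family, rose, and it was the only mitochondrial ribosomal protein gene of the 76 that passed at an adjusted p under 0.05, which is the threshold for every call here. The other 75 did not pass. Over all genes tested, 5.08% passed in either direction with 2.48% higher and 2.6% lower with TGFβ. Mrpl21 stood at 41.7, 35.8 and 38.9 CPM in mock and at 60.9, 61.1 and 48.8 CPM in mock with TGFβ. In Nnmt-OE it stood at 40.9, 46.9 and 38.8 CPM, and in Nnmt-OE with TGFβ at 55.7, 55.2 and 50.3 CPM. All 6 libraries with TGFβ lay above all 6 without it, a separation found upward for 1.47% of all genes. Group means were 38.8 ± 2.95, 56.9 ± 7.06, 42.2 ± 4.23 and 53.7 ± 3.01 CPM (SD, n = 3), in the same order. The log2 fold change was 0.45 ± 0.11 (SE), a fold of 1.37 with a 95% interval of 1.17 to 1.60 (edgeR's quasi-likelihood test, Benjamini-Hochberg adjusted p = 0.00906). Mrpl21 was called in 12 of 12 fits that each left out 1 library, with adjusted p from 0.00409 to 0.0342. Within the constructs the change was 0.55 in mock (adjusted p = 0.067) and 0.35 in Nnmt-OE (adjusted p = 0.38), so neither passed alone in the same edgeR fit.

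The genes next in order of p were Mrps28, Mrpl52 and Mrpl3, and all of them missed the threshold. Mrps28, a small-subunit protein related to the bacterial protein that binds messengers on the ribosome, had 29.0, 20.8 and 35.8 CPM in mock and 35.6, 44.0 and 39.6 CPM in mock with TGFβ. In Nnmt-OE it had 32.3, 32.3 and 35.3 CPM, and with TGFβ 43.6, 41.0 and 44.8 CPM. The groups touched in mock, where 1 untreated library was at 35.8 CPM, and did not overlap in Nnmt-OE. The pooled log2 difference was 0.42 ± 0.13 (SE), with an edgeR adjusted p of 0.0502, and it passed with DESeq2, limma-voom, RLE scaling, no filter on low counts, the stricter filter or the replicate block (adjusted p from 0.0279 to just under 0.05). It missed with library totals (0.0589) and without the 3 libraries that stood apart (0.0929). With 1 library left out it passed in 1 of 12 fits, without mock replicate 3, and the difference ranged from 0.33 to 0.52 with adjusted p from 0.0166 to 0.172.

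Mrpl52, a mitochondrial addition to the large subunit, had 69.1, 55.1 and 65.4 CPM in mock and 80.6, 88.3 and 63.6 CPM in mock with TGFβ. In Nnmt-OE it had 59.9, 67.6 and 64.9 CPM, and with TGFβ 80.5, 80.0 and 75.5 CPM. Only mock with TGFβ replicate 3 lay among the untreated values. The pooled log2 difference was 0.29 ± 0.10 (SE, edgeR adjusted p = 0.0746), and without the 3 libraries that stood apart it was 0.40 with an adjusted p of 0.00826. Mrpl3, a large-subunit protein of a family found in all ribosomes, had 40.5, 51.1 and 43.8 CPM in mock and 41.6, 50.9 and 58.3 CPM in mock with TGFβ. In Nnmt-OE it had 35.9, 39.6 and 48.1 CPM, and with TGFβ 58.3, 51.9 and 68.2 CPM. These groups overlapped in mock and not in Nnmt-OE. The pooled difference was 0.34 (edgeR adjusted p = 0.0862). Without the 3 libraries that stood apart, the difference of Mrpl3 fell to 0.20 with an edgeR adjusted p of 0.476. Mrpl3 passed in 0 of 12 fits that each left out a library.

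The promoters of the called gene and of the next genes in order of p with an entry in RefSeq (GRCm38.p6) are shown as the 250 bases before the annotated start, 5′ to 3′ on the strand of the gene. Capitals mark the motif of the ETS family, to which GABP belongs, on either strand (CCGGAAG or CTTCCGG). Mrps28 has no entry.
Mrpl21: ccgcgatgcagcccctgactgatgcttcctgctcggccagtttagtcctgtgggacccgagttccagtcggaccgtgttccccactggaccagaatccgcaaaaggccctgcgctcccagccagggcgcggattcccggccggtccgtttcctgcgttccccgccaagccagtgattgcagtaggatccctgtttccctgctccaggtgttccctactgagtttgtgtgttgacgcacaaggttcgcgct
Mrpl52: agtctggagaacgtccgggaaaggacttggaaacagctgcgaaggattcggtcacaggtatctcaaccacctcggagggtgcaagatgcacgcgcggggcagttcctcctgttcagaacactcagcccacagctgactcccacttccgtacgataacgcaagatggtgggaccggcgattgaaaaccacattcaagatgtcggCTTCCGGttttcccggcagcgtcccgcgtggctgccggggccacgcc
Mrpl3: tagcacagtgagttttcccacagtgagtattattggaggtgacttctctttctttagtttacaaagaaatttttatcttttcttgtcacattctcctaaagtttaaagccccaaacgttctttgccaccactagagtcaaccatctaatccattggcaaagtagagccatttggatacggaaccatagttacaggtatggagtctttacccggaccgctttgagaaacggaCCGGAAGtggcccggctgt
They lie at chr19:3282792-3283041, chr14:54426659-54426908 and chr9:105053018-105053267, each on the plus strand. The Mrpl52 and Mrpl3 windows each held 1 ETS motif, and the Mrpl21 window held none of the 5 motifs searched.

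Among all the mitochondrial ribosomal protein genes, 69 of 78 matched an entry, with 75 windows of 250 bases. Motifs were searched on both strands without regard to overlap between them. A gene was counted once if any of its windows held the motif. The ETS motif CCGGAAG was found for 18 of the 69 genes (26.1%) and for 7.83% of all 27025 genes in the table. The palindromic motif of NRF1 was found for 14.5% against 4.23%, and the YY1 motif AAGATGGC for 5.8% against 1.83%. NRF1, GABP and YY1 are transcription factors known to act on nuclear genes of mitochondrial proteins. The E-box CACGTG, which MYC proteins can bind, was found for 7.25%, close to the 6.86% of all genes, and TATAAA for 7.25% against 14.3%. These windows were also richer in G and C, with a median of 58.4% against 52.4%. The part of base composition in the motif counts was not tested. The 27025 genes include some with too few reads to be tested here, and no share was taken among the 12897 tested genes.

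Start sites of these genes often faced another gene. In the GENCODE M21 annotation, 33 of 78 (42.3%) had the start of a protein-coding gene of the opposite strand within 1000 bases. So did 2384 of 21951 protein-coding genes (10.9%), whether tested here or not. Mrpl21 starts 116 bases from Ighmbp2, Mrpl36 starts 29 bases from Ndufs6, and Mrpl46 and Mrps11 face each other at 412 bases. Ighmbp2, Ndufs6 and the genes named next were picked after their values were seen. Ighmbp2, at a mean of 16.2 CPM, had a pooled TGFβ log2 difference of -0.02 (edgeR adjusted p = 0.98), beside the 0.45 of Mrpl21. Of the 31 facing genes that were tested, which include Mrpl46 and Mrps11 themselves, 24 had a positive difference with TGFβ (49.2% of all genes did). Calls were made for 2, a share near the 5.08% of all genes, namely Tcp1 by Mrpl18 (0.29) and Klc4 by Mrpl2 (-0.60), with edgeR adjusted p-values of 0.0246 and 0.00849. Exons of 33 members overlapped those of another gene, on the opposite strand for 28 of them, and for 11 an overlap lay within 500 bases of the member's 3' end, where tags fall. Exons of Ighmbp2 overlap those of Mrpl21 on the opposite strand, away from its 3' end.

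Pooled over constructs, 52 of the 76 genes (68.4%) had a positive TGFβ difference, against 49.2% of all genes tested. Their median log2 difference was 0.09, with quartiles of -0.03 and 0.21, and the median of all genes was -0.00461. At an unadjusted p under 0.05, 11 were higher and 1, Mrps6, was lower, against 8.34% and 8.23% of all genes. Small-subunit genes had a median of 0.12 (18 of 26 positive) and large-subunit genes one of 0.08 (34 of 50 positive). Genes of bacterial families had a median of 0.12 (35 of 48 positive) and mitochondrial additions one of 0.07 (17 of 28 positive). The 95% interval lay wholly within 1.5-fold either way for 65 of the 76 (85.5%), against 58.1% of all genes. Intervals are wider for genes with fewer reads, and no share at a matched level was taken, here or in the comparisons below. The extremes were the poorly counted Mrpl23, at -1.16 with an interval of -2.48 to 0.17, and Mrps18b, at 0.92 with one of -0.37 to 2.22.

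**Figure D2:**
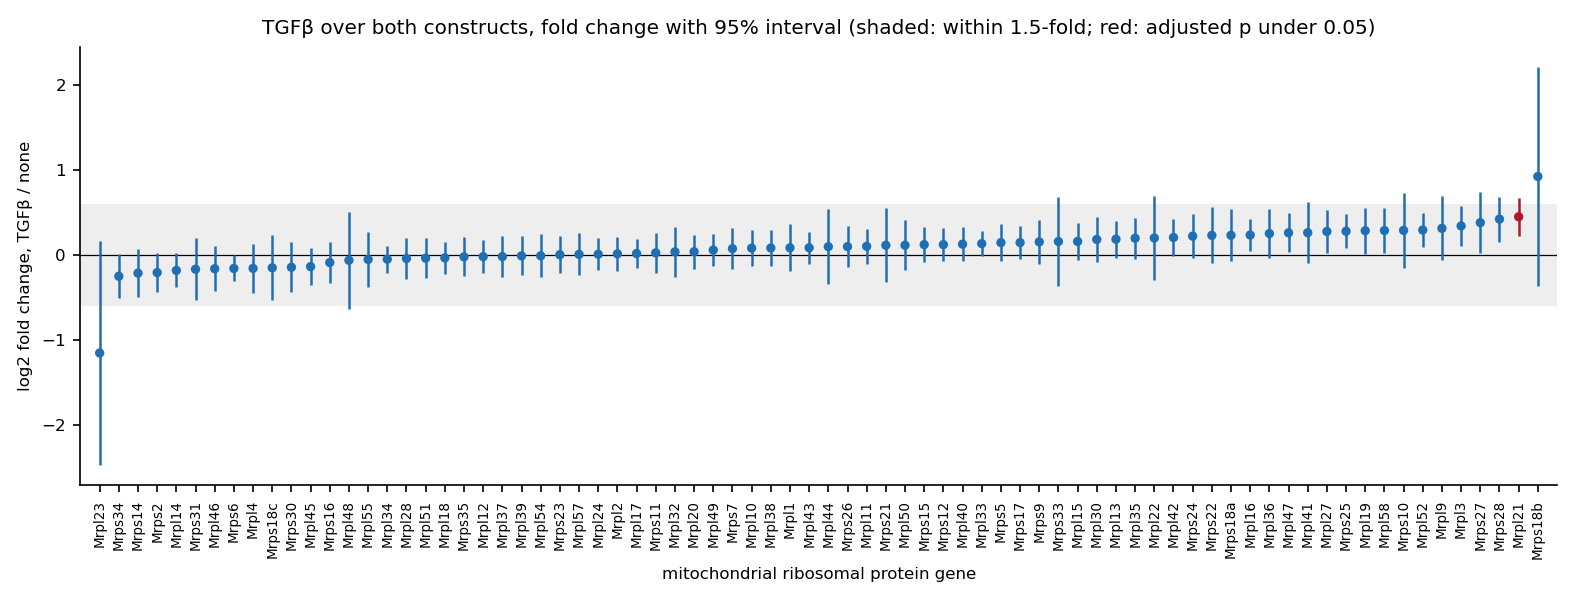
Log2 fold change of TGFβ against none over both constructs for each of the 76 genes, with its 95% interval; the shaded band is 1.5-fold either way. Mrpl21, in red at 0.45, is the gene that passed at an adjusted p under 0.05, and Mrpl23 and Mrps18b have the widest intervals.

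The comparisons of TGFβ in mock and in Nnmt-OE share no library. In mock, 50 of 76 genes (65.8%) had a positive TGFβ difference against 49.7% of all genes, with a median of 0.07. In Nnmt-OE, 49 of 76 (64.5%) were positive against 49.7%, with a median of 0.09. By edgeR, 0 of 76 passed in either, where 1.43% and 1.4% of all genes did. At an unadjusted p under 0.05, 8 were higher and 0 lower in mock (5.93% of all genes each way), and 6 were higher and 2 lower in Nnmt-OE (5.23% and 5.83%). The 2 lower were Mrps6 and Mrpl14, the latter picked after its values were seen. DESeq2 called 1 gene in mock, Mrpl21, and 0 in Nnmt-OE, and limma-voom called 0 in both. The interval lay within 1.5-fold either way for 46 genes in mock (60.5%, against 41.8% of all genes) and for 49 in Nnmt-OE (64.5%, against 42.2%). A positive difference with both constructs was found for 36 genes (47.4%, against 30.3% of all genes) and a negative one with both for 13 (17.1%, against 30.8%).

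In mock, 14 of the 76 genes had every library with TGFβ above every library without it, against 7.78% of all genes, and 1, Mrps2, which is outside the rule for named genes, had every one below (8.58% of all genes). In Nnmt-OE these counts were 8 and 4, against 8.7% and 8.89%, the 4 being Mrps6, Mrpl14, Mrpl17 and Mrpl46, of which Mrpl14 and Mrpl46 are outside the rule. Mrps25, a mitochondrial addition to the small subunit, was next to Mrpl21 in mock. It had 55.6, 61.7 and 76.6 CPM without TGFβ and 94.7, 96.0 and 78.1 CPM with it. The log2 difference was 0.47 ± 0.14 (SE, edgeR adjusted p = 0.0837). In Nnmt-OE the same gene had 68.8, 85.2 and 65.7 CPM without TGFβ and 72.2, 80.0 and 81.7 CPM with it, and the groups overlapped. Exons of Nr2c2 overlap Mrps25 near its 3' end.

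In Nnmt-OE, the smallest p-values belonged to Mrpl3 and Mrps6. The TGFβ difference of Mrpl3 was 0.53 ± 0.17 (SE) on the log2 scale, with an edgeR adjusted p of 0.109. Mrps6, whose levels lay among the highest, had 203, 233 and 185 CPM without TGFβ and 172, 172 and 151 CPM with it, a log2 difference of -0.33 ± 0.11 (SE, edgeR adjusted p = 0.139). Exons of Slc5a3 overlap those of Mrps6 on the same strand. Slc5a3, at a mean of 129.8 CPM, had a pooled TGFβ log2 difference of -0.21 (edgeR adjusted p = 0.102), and how reads were divided between these genes was not tested. In mock the levels of Mrps6 overlapped, at 167, 188 and 189 CPM without TGFβ and 201, 187 and 157 CPM with it. Mrps17, a small-subunit protein of a family found in all ribosomes, stood at 0.33 in Nnmt-OE (adjusted p = 0.302) and -0.03 in mock (0.962). In mock, the differences of Mrpl36 and Mrps28 were 0.53 (adjusted p = 0.229) and 0.47 (0.256) in the same edgeR fit.

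Whether the TGFβ difference depended on the construct was tested by the interaction. None of the 76 genes passed, and by edgeR, DESeq2 and limma-voom alike the count was 0, as it was for all 12897 genes by edgeR (0% called). At an unadjusted p under 0.05, 2 members, Mrps6 and Mrpl17, had a lower TGFβ difference in Nnmt-OE than in mock, against 2.02% of all genes, and 0 had a higher one, against 1.86%. Their log2 interactions were -0.33 and -0.36, with 95% intervals of -0.64 to -0.02 and -0.71 to -0.01 and an edgeR adjusted p of 0.999 for both.

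**Figure D3:**
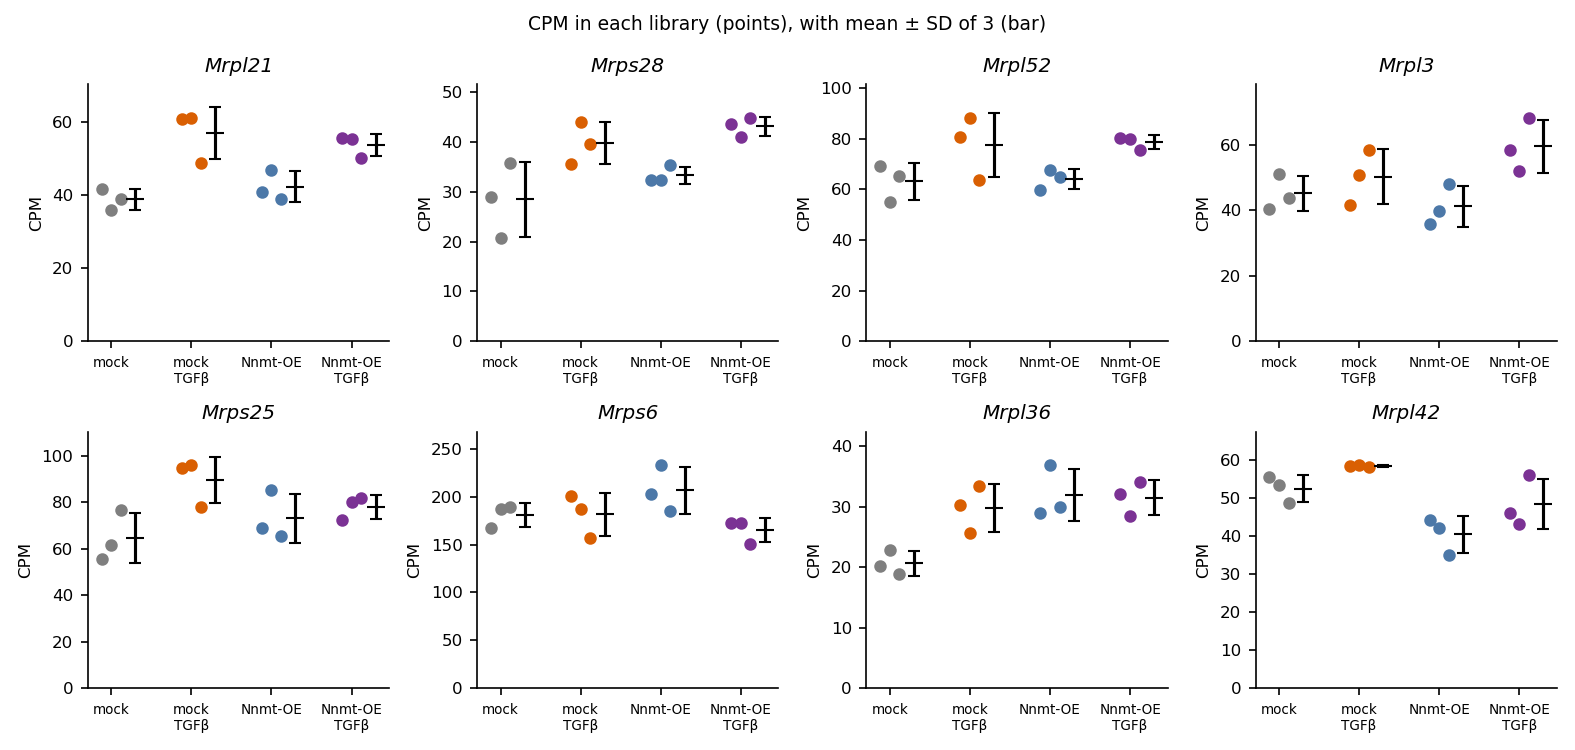
CPM of 8 mitochondrial ribosomal protein genes in each library (points) of the 4 groups, with the mean and SD of 3 libraries beside them; every axis starts at 0. Mrpl21 lies higher in all 6 libraries with TGFβ, while the points of Mrps25 and Mrps6 separate by TGFβ with 1 construct and overlap with the other.

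The construct comparison gave no calls among these genes. Without TGFβ, 39 of 76 (51.3%) were higher in the libraries labelled Nnmt-OE than in mock, against 50.2% of all genes, with a median log2 difference of 0.01. With TGFβ, 33 of 76 (43.4%) were higher, against 49.5%, with a median of -0.02. No member passed in either comparison, where 0.0388% and 0.0233% of all genes did, nor over both treatments (0.0698%), and DESeq2 and limma-voom also called 0 in each. At an unadjusted p under 0.05 without TGFβ, 2 were higher (Mrpl36 and Mrps5) and 4 lower (Mrpl20, Mrpl42, Mrpl49 and Mrpl55), against 3.1% and 2.74% of all genes, and with TGFβ the counts were 0 and 0, against 2.36% and 2.1%. Over both treatments 2 were higher (Mrpl16 and Mrpl36) and 5 lower (Mrpl42, Mrpl20, Mrpl49, Mrpl55 and Mrps15), against 3.35% and 2.88%. The interval lay within 1.5-fold for 54 genes without TGFβ (71.1%, against 45.2% of all genes), for 55 with it (72.4%, against 46.7%) and for 65 over both (85.5%, against 62.6%).

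Without TGFβ, 5 genes had every Nnmt-OE library above every mock library (Mrpl36, Mrps5, Mrpl17, Mrpl16 and Mrpl19), against 5.64% of all genes, and 4 had every one below (Mrpl42, Mrpl55, Mrps15 and Mrps27), against 5.29%. With TGFβ these counts were 2 (Mrps10 and Mrpl16), against 5.27%, and 7, against 4.95%. Over both treatments they were 0 and 0, against 0.132% and 0.093%. Mrpl19, Mrpl55, Mrps15 and Mrps27 are outside the rule for named genes.

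Mrpl36, a small large-subunit protein of a bacterial family, had the smallest p without TGFβ. It stood at 20.3, 22.9 and 18.8 CPM in mock and at 28.9, 36.8 and 30.0 CPM in Nnmt-OE, with no overlap. The log2 difference was 0.63 ± 0.20 (SE), a fold of 1.55 with a 95% interval of 1.17 to 2.06 and an edgeR adjusted p of 0.805. With TGFβ the gene stood at 30.3, 25.7 and 33.4 CPM in mock and 32.1, 28.4 and 34.0 CPM in Nnmt-OE, which overlapped. Its 3 mock libraries without TGFβ were thus the lowest of the 12.

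Mrpl42, a mitochondrial addition to the large subunit, had the smallest p over both treatments, with a log2 difference of -0.32 ± 0.11 (SE), a fold of 0.80 (95% interval 0.686 to 0.932) and an edgeR adjusted p of 0.56. It stood at 55.6, 53.5 and 48.7 CPM in mock and at 44.3, 42.2 and 35.1 CPM in Nnmt-OE. With TGFβ it stood at 58.6, 58.8 and 58.3 CPM in mock and at 46.3, 43.3 and 56.1 CPM in Nnmt-OE. The construct groups did not overlap at either treatment, although Nnmt-OE with TGFβ replicate 3 lay above all 3 untreated mock libraries. Without TGFβ, the next genes were Mrpl20 at -0.37 and Mrps5 at 0.38 (edgeR adjusted p = 0.813 for both). With TGFβ, Mrps10 stood at 0.61 ± 0.31 (SE), Mrpl16 at 0.26 and Mrpl28 at -0.34, all with an edgeR adjusted p of 0.998. Over both treatments, Mrpl16 stood at 0.25 and Mrpl20 at -0.26 (0.69 for both), and Mrpl36 at 0.36 (0.693).

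Summed over members, the level was 3793.8 ± 81.5 CPM in mock, 3987.5 ± 168.2 CPM in mock with TGFβ, 3774.1 ± 226.5 CPM in Nnmt-OE and 3929.1 ± 23.1 CPM in Nnmt-OE with TGFβ (SD, n = 3). The ranges of untreated and treated libraries overlapped with both constructs. The ratio of summed small-subunit to large-subunit CPM was 0.441 ± 0.00747 in mock, 0.435 ± 0.00995 in mock with TGFβ, 0.460 ± 0.00719 in Nnmt-OE and 0.443 ± 0.0123 in Nnmt-OE with TGFβ (SD, n = 3). The untreated Nnmt-OE libraries, at 0.4557 to 0.4684, lay above every library of the other groups (0.4541 or less). That separation was picked after the values were seen, and it was not tested.

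**Figure D4:**
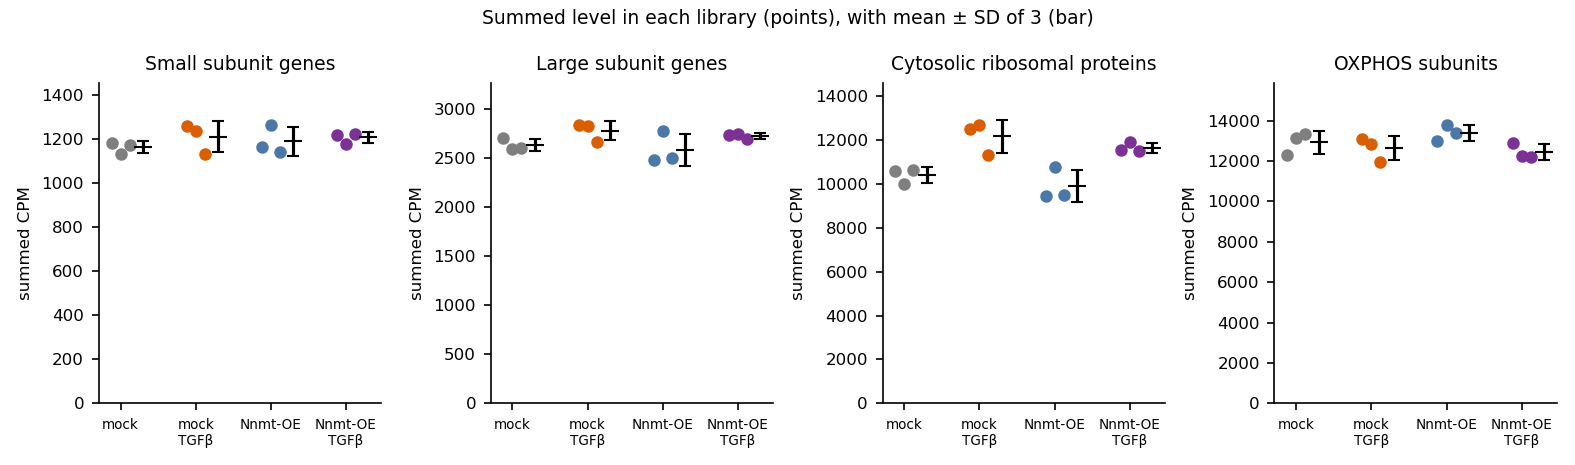
Summed CPM in each library (points) of the small-subunit and large-subunit genes, the cytosolic ribosomal protein genes and the nuclear oxidative phosphorylation genes, with the mean and SD of 3 libraries beside them; axes start at 0. Cytosolic ribosomal proteins lie higher in all 6 libraries with TGFβ (11316 CPM or more) than in the 6 without (10773 CPM or less), and the mitochondrial ones overlap.

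The cytosolic ribosome was measured through 79 tested genes of its proteins. Of these, 74 (93.7%, against 49.2% of all genes) had a positive TGFβ difference over both constructs, with a median of 0.23. Of the 79, 13 rose and 0 fell, where 2.48% and 2.6% of all genes did, among them Rps2 (0.44) and Rpl13a (0.40), with edgeR adjusted p-values of 3e-05 and 0.00108. Genes of this list have many near-identical copies in the genome, so their counts are uncertain. The difference between this list and the mitochondrial one was not tested. Nuclear genes of the oxidative phosphorylation complexes, whose partners the mitochondrial ribosome makes, had 18 of 80 positive (22.5%, against 49.2%) and a median of -0.06. In that list 0 rose and 3 fell, a share near the 2.6% of all genes that fell. They were the complex I genes Ndufb8 (-0.25), Ndufa11 (-0.28) and Ndufv3 (-0.35), with edgeR adjusted p-values of 0.013, 0.0247 and 0.037. Ndufv3 is outside the rule for named genes. The call of Ndufb8 ended without the 3 libraries that stood apart (adjusted p = 0.0662), and that of Ndufa11 in 5 of 12 fits that left out 1 library. Those were the fits without mock replicate 3 (0.0569), mock with TGFβ replicate 1 (0.0808), Nnmt-OE replicate 1 (0.0671), Nnmt-OE replicate 3 (0.0571) and Nnmt-OE with TGFβ replicate 2 (0.0924).

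**Figure D5:**
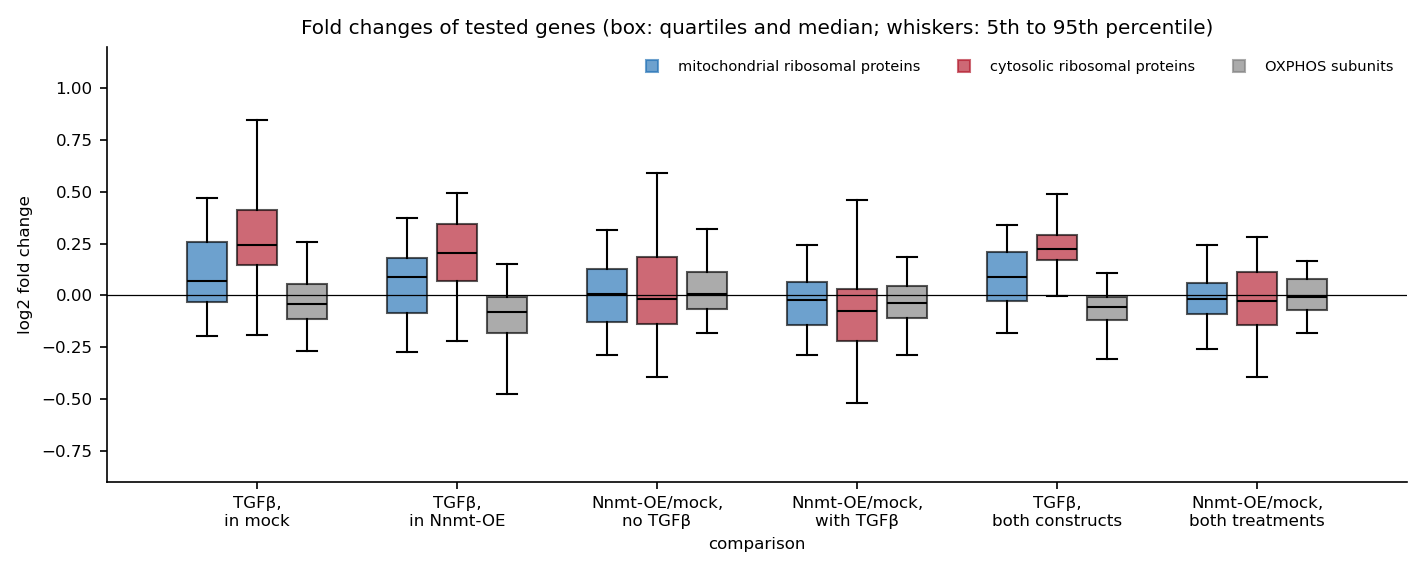
Log2 fold changes of tested mitochondrial ribosomal, cytosolic ribosomal and oxidative phosphorylation genes in 6 comparisons; boxes give quartiles and median, whiskers the 5th and 95th percentiles. With TGFβ over both constructs the medians are 0.09, 0.23 and -0.06, and the boxes of the construct comparisons span 0.

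Around the mitochondrial ribosome, most of the genes that serve it did not pass. The counts below stand beside 2.48% of all genes that rose and 2.6% that fell with TGFβ over both constructs, and a single call in lists of these sizes says nothing particular of a list. The 5 ribosomal proteins with other names (Dap3, Chchd1, Ptcd3, Aurkaip1 and Gadd45gip1) had a median TGFβ difference of 0.14 and 0 calls, with Gadd45gip1 at 0.30 (edgeR adjusted p = 0.241) and Aurkaip1 at 0.14 (0.458). Of 29 assembly genes, 1 rose and 0 fell. It was C1qbp, a matrix protein needed for mitochondrial translation, at 0.31 ± 0.08 (SE, edgeR adjusted p = 0.00916), whose call ended without Nnmt-OE with TGFβ replicate 3 (0.0694). Noa1, a GTPase of small-subunit assembly, stood at 0.41 (0.292). Among 19 translation factors and related genes tested of 20, none passed, with the RNA-binding protein gene Slirp at 0.31 (0.0783) and the elongation factor gene Gfm1 at 0.17 (0.488). Among 19 tRNA synthetases of mitochondria, 1 rose and 0 fell. It was Kars, which serves the cytosol as well, at 0.33 ± 0.08 (SE, edgeR adjusted p = 0.00731), and Gars, which also serves both, stood at 0.16 (0.192). Among 20 genes of mitochondrial transcription and RNA processing, none passed, with Tfb2m at 0.69 (0.209) and Tbrg4 at 0.25 (0.397).

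Of 13 nuclear regulators of mitochondrial genes, 1 fell and 0 rose, where 2.6% and 2.48% of all genes did. It was Ppargc1a, which encodes the coactivator PGC-1α, with a TGFβ log2 fold change of -0.68 ± 0.09 (SE) over both constructs (edgeR adjusted p = 8.19e-07). Within the constructs it was -0.45 in mock (0.052) and -0.91 in Nnmt-OE (6.32e-06), and the interaction was -0.46 (0.999). Myc, a transcription factor gene of ribosome synthesis, stood at 0.38 (0.139), Nrf1 at -0.04 (0.904) and Gabpa, a subunit of GABP, at -0.02 (0.979). On the mitochondrial genome, 9 of 15 listed genes were tested. The untested mt-Atp6, mt-Atp8, mt-Co2, mt-Co3, mt-Nd3 and mt-Nd4l had group means of 0.173 CPM or less, beside 7955 to 10230 CPM for mt-Nd4. How reads of this genome were counted was not tested, so its levels are uncertain. Of the 9 genes, 0 rose and 1 fell. It was mt-Rnr2, the RNA of the large subunit, at -0.17 ± 0.05 (SE, edgeR adjusted p = 0.0251), with group means of 29550 CPM in mock, 25710 CPM in mock with TGFβ, 26920 CPM in Nnmt-OE and 24540 CPM in Nnmt-OE with TGFβ. That call ended with DESeq2 (0.0506), with the replicate block (0.0574) and in 6 of 12 fits that left out 1 library. Those were without mock with TGFβ replicate 1 (0.103) or 2 (0.102), Nnmt-OE replicate 1 (0.086) or 3 (0.108), and Nnmt-OE with TGFβ replicate 1 (0.136) or 3 (0.084). The RNA of the small subunit, mt-Rnr1, had means of 11510, 11370, 12330 and 11680 CPM in the same order and was not called, and mt-Nd6, a complex I gene, stood at 0.56 (0.0758).

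In the construct comparison over both treatments none of these lists had a call, and the genes with the smallest p-values are given by value. Among proteins with other names they were Dap3 (-0.18) and Aurkaip1 (-0.13), and among assembly genes Mpv17l2 (-0.29) and Mettl17 (0.60). Oxa1l, the insertase of the inner membrane, stood at 0.34 and Gatb at 0.38, and the synthetase genes Tars2 and Kars at -0.29 and 0.15. The transcription genes Tefm and Mterf1b stood at 0.77 and 0.81, and the regulators Pprc1 and Myc at -0.30 and 0.21. The RNA gene mt-Rnr2 stood at -0.10 and mt-Nd1, of complex I, at -0.07. The cytosolic ribosomal protein genes Rps9 and Rpl32 stood at -0.25 and -0.20, and Cox8a and Atp5d, of cytochrome oxidase and ATP synthase, at 0.30 and -0.16. The smallest edgeR adjusted p among all these was 0.449, for Rps9 and Cox8a, and both were called when no filter on low counts was used (0.0488 and 0.00445).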

How the data were processed

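RNA of mouse tubular epithelial cells was measured by 3' tag sequencing in 12 libraries, each from 100 ng. The deposited values are raw counts of reads per gene that the authors made with STAR and HTSeq, per the submitters' processing notes, which name GRCh38 although the identifiers are mouse. For the mouse build, annotation and strand setting, the answer is not given in the sources used here. Molecular identifiers are not mentioned. Reads outside genes (26.4 to 28.8%) and ambiguous reads (0.6 to 0.68%) were left out of library sizes. Symbols from GENCODE M21 matched 55141 of 55487 identifiers.

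A single model of 4 group means was fitted to the 12 libraries with edgeR 4.0.16 (R 4.3.3). The filter was filterByExpr (minimum count 10, minimum total 15), which removed 42590 genes, and scaling was TMM (factors 0.982 to 1.011). The robust quasi-likelihood test was adjusted by Benjamini-Hochberg over 12897 genes at 0.05, and the script was tested on simulated data. Comparisons over both constructs or treatments average the 2 separate ones. Alternatives were DESeq2 1.42.0, limma-voom 3.58.1, RLE scaling, scaling by library totals, other filters, the replicate block, the compared groups alone and each library left out. Leaving out the 3 libraries that stood apart was chosen after seeing the data.

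The members and gene lists were chosen with earlier results of these data known. Genes are named if called, among the 4 smallest p-values of a comparison, the 5 highest or lowest in level, Mrps18 paralogues, untested, regulators, or the 2 smallest p-values of another list.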

Additional observations from a re-analysis of the deposited data

How the results depend on the processing

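The direction of the median difference of the mitochondrial ribosomal protein genes with TGFβ was positive under every alternative tried, in mock, in Nnmt-OE and over both constructs. In mock, the count of these genes that passed rose from 0 to 1 with DESeq2 (Mrpl21), without a filter (Mrps25) and without the 3 libraries that stood apart (Mrpl21), and ranged from 0 to 2 over fits that left out 1 library, 2 being found without mock with TGFβ replicate 3 and 1 without mock replicate 3. Over both constructs, where 1 passed, the count was 2 with RLE scaling, limma-voom, no filter or the stricter filter (Mrpl21 and Mrps28) and without the 3 libraries that stood apart (Mrpl21 and Mrpl52). It was 3 with DESeq2 and ranged from 1 to 3 over fits without 1 library. It was 3 without mock replicate 3, and 2 without Nnmt-OE replicate 2, mock replicate 1 or mock with TGFβ replicate 3. Over both constructs Mrpl21 was called in each of these fits. With 1 library left out, the median ranged from 0.058 to 0.114 for TGFβ over both constructs, from 0.0467 to 0.0969 for TGFβ in mock, from 0.0239 to 0.144 for TGFβ in Nnmt-OE, from -0.0726 to 0.0293 for Nnmt-OE against mock without TGFβ, and from -0.0791 to -0.0146 for the same with TGFβ, where it was -0.0857 without the 3 libraries. Over fits without 1 library the pooled TGFβ difference ranged from -0.11 to 0.023 for Nrf1 and from -0.078 to 0.095 for Gabpa. That of Nrf1 turned to 0.023 without mock with TGFβ replicate 3, 0.010 without Nnmt-OE replicate 3 and 0.037 without the 3 libraries. That of Gabpa turned to 0.017 with limma-voom, and to 0.051, 0.046 and 0.095 without Nnmt-OE replicate 3, mock with TGFβ replicate 3 and mock replicate 2. The cause was not tested for any of these.

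Over all genes, DESeq2 called 306 against 184 for TGFβ in mock and 295 against 180 in Nnmt-OE, and 92 and 351 were called when only the compared groups were fitted. Same-numbered libraries did not deviate together, with 18 correlations from -0.102 to 0.047 and 4 of 12 libraries best matched by their own number. With the replicate block, 2 members passed for TGFβ over both constructs (Mrpl21 and Mrps28) and 0 in every other comparison. Depth limits the least counted genes, since Mrpl23 and Mrps18b averaged 11.3 and 10.3 reads in a library.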
